A study of Homo sapiens with 9 samples.

Results

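The sorting receptor gene SORL1, the amyloid precursor protein gene APP and the genes of the proteases that cut APP were followed in SH-Sy5y cells that had received a mimic of the human miRNA miR-1229-3p. The 9 genes (SORL1, APP, BACE1, PSEN2, NCSTN, APH1A, PSENEN, ADAM10 and ADAM17) were taken by name, and all 9 were among the 14943 genes of the count table. PolyA RNA was sequenced in 3 groups of 3 libraries, each collected 48 h after transfection. Control libraries (Ctrl.) received 40 pmol of a negative control oligonucleotide, 10 nM libraries received 20 pmol of mimic together with 20 pmol of that oligonucleotide, and 20 nM libraries received 40 pmol of mimic and no control oligonucleotide. SH-Sy5y is a dividing human neuroblastoma line, so it stands for tumor cells of the sympathetic lineage and not for brain neurons. A library may hold RNA pooled from a pair of wells, and the labels do not say whether replicates were separate cultures, so p-values measure the spread between these libraries, which may be technical. The mimic is not read in polyA libraries, and no protein or amyloid peptide was measured here.

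APP is a membrane protein that is cut along either of a pair of routes. On the amyloid-forming route, BACE1 cuts first (the beta cut), and the gamma-secretase complex of a presenilin, nicastrin, an APH1 subunit and PEN-2 then releases amyloid-beta from the membrane. On the other route, ADAM10 or ADAM17 cuts inside the amyloid-beta stretch (the alpha cut), which keeps that peptide from forming. SORL1 binds APP in the Golgi and in endosomes and routes it away from compartments where BACE1 acts, and loss of SORL1 is tied to Alzheimer's disease. A miRNA pairs through its seed with matches in the 3′ untranslated region (UTR) of messenger RNAs and lowers their stability or translation, and SORL1 has been named in earlier work as a target of miR-1229-3p.

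The sequences below show the seed of the miRNA and matches to it, so that each value can be read beside its match. Only the longest match is printed, for those of the 9 genes with a match in the 3′ UTR of the reference transcript. The mature miRNA (RefSeq, chr5:179798278-179798300, GRCh38.p14, minus strand) is printed with bases 2 to 8, its seed, in capitals. The matches come from GENCODE 44 transcripts of the same build, 5′ to 3′ along the messenger RNA, with the matched letters in capitals. The search took GGTGAGAA (8-mer), then GGTGAGA or GTGAGAA (7-mers), then GTGAGA (6-mer), on the transcript strand alone, and each gene was given its longest match, so a shorter match inside a longer one was not counted again.
hsa-miR-1229-3p: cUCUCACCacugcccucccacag
SORL1, 8-mer: gtcctagttccagacaGGTGAGAAgct
ADAM17, 7-mer: cactattgaataagagGGTGAGAtat
ADAM10, 7-mer: agcgtatggtcttgtaGGTGAGAtag
BACE1, 6-mer: tgcagcctgaccaaaaGTGAGAtgg

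The SORL1 match (chr11:121632397-121632404, plus strand) starts at base 2834 of a 3′ UTR of 4200 bases, and a separate 6-mer starts at base 280. The ADAM17 match (chr2:9489183-9489189, minus strand) starts at base 988 of 1691, and that of ADAM10 (chr15:58590334-58590340, minus strand) at base 7207 of 8738. Separate 6-mers start at base 879 in ADAM17 and at bases 5337 and 6086 in ADAM10. BACE1 holds a 6-mer (chr11:117288798-117288803, minus strand), which is the shortest kind. PSEN2 holds a pair of 7-mers only in the 3′ UTR of a transcript other than its reference transcript. APP, NCSTN, APH1A and PSENEN hold no match of any kind in an annotated 3′ UTR. Thus 4 of the 9 genes held an 8-mer or 7-mer in some annotated 3′ UTR, against 24.5% of 13868 genes with such a UTR, and 3 of 9 held one in the reference transcript, against 20.7%. SORL1 carried the 8-mer that 5.2% of genes have. A match is a string of letters and was not tested for pairing here.

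Levels are given as counts per 1000000 counts of a library (CPM), scaled with trimmed means of M-values (TMM). Fold changes come from edgeR's quasi-likelihood test over all 9 libraries, with a surrogate variable for unwanted variation, and were called when the p-value, adjusted by the Benjamini-Hochberg method over all 14943 genes, was under 0.05. The dose trend is the fitted log2 change from 0 to 20 nM along the concentration, with 2 surrogate variables.

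Total estimated counts ran from 17423969 to 28192775 per library, and each of the 9 genes had between 368 counts (SORL1) and 24401 counts (APP) in every library. The third 20 nM library stood apart from the others on the first principal component of log2 expression (score of 47.4, against -17.1 to 7.72), which held 30.4% of the variance. The surrogate variable of the fit by group is mostly this library, since its value there was 0.907 against -0.242 to 0.0602 elsewhere. The 6 noradrenergic neuroblastoma markers read here (PHOX2A, HAND2, GATA3, ISL1, DBH and TH) were present, with a summed level of 3977 to 4176 CPM in Ctrl., 4257 to 4437 at 10 nM and 4177 to 4710 at 20 nM. The 5 fibroblast markers (COL1A1, COL1A2, COL3A1, LUM and DCN) were also present and summed to 101 to 148 CPM in Ctrl., 101 to 161 at 10 nM and 79.8 to 151 at 20 nM. Of the epithelial pair EPCAM was present at 0.527 to 1.2 CPM, and KRT8, PTPRC (blood), GFAP and AQP4 (astrocytes) and AIF1 and CX3CR1 (microglia) were not among the genes of the table. Whether the higher noradrenergic sum had a part in the results was not tested. In such bulk libraries, fewer cells of a kind and less RNA per cell cannot be told apart.

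To compare the genes with each other, the CPM were divided by the length of the reference transcript. In Ctrl., APP was the most abundant at 191 ± 7.81 CPM per kilobase (SD, n = 3), above 98.1% of 14873 genes with a known length. APH1A followed with 158 ± 3.76, and then NCSTN with 43.9 ± 1.04 CPM per kilobase. PSENEN (30.7 ± 2.6), BACE1 (25.3 ± 1.01), PSEN2 (20.6 ± 1.01) and ADAM17 (15 ± 1.32) formed the middle of the order. ADAM10 (6.72 ± 0.127) and SORL1 (2.12 ± 0.413) lay below the median gene, which was at 8.2 CPM per kilobase, and SORL1 was above only 23.8% of genes. No pair of neighbours in this order overlapped among the 3 Ctrl. libraries. The middle of the order depends on the transcript: with the longest annotated transcript, NCSTN fell to 25.1, below PSENEN, and PSEN2 to 8.99, below ADAM17 at 10 CPM per kilobase.

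**Figure D1:**
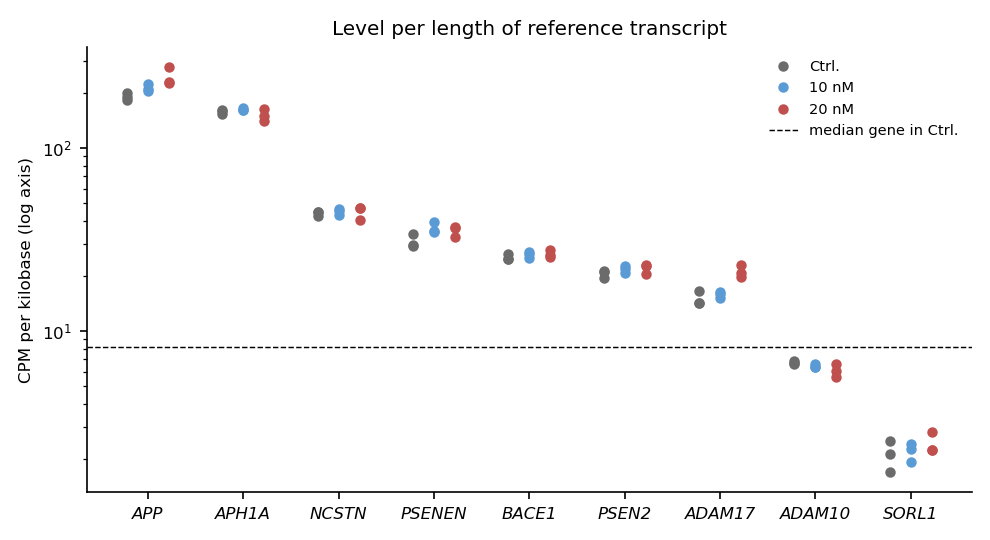
Level of each gene per kilobase of its reference transcript (CPM per kilobase, log axis) in the 9 libraries, with 3 points per group (Ctrl., 10 nM and 20 nM) and the median gene in Ctrl. as a dashed line. APP and APH1A lie above 100 in every library, and SORL1 lies lowest at 1.7 to 2.8.

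SORL1 (ENSG00000137642, chromosome 11, 121452314 to 121633763, plus strand) had a fitted change above 0 in all 4 comparisons, and none of them passed the test. Its levels were 23.1, 27.4 and 18.4 CPM in Ctrl. replicates 1 to 3, 24.6, 26.3 and 21 CPM at 10 nM, and 24.5, 30.4 and 24.2 CPM at 20 nM. The 3 groups overlapped, and replicate 2 was the highest of its group each time. Against the Ctrl. library of the same number, SORL1 was higher in 5 of 6 mimic libraries. The log2 fold change was 0.09 ± 0.13 (SE) at 10 nM (adjusted p = 0.796 in edgeR, n = 3) and 0.28 ± 0.15 at 20 nM (adjusted p = 0.236 in edgeR, n = 3). The 95% interval at 20 nM ran from -0.04 to 0.61, and that at 10 nM from -0.19 to 0.38. The dose trend was 0.24 ± 0.13 (adjusted p = 0.247 in edgeR), and 20 nM against 10 nM gave 0.19 ± 0.14 (adjusted p = 0.6 in edgeR). SORL1 was counted on 368 to 706 reads per library, the fewest of the 9 genes, and its Ctrl. libraries had a mean of 23 CPM with an SD of 4.49. The change at 20 nM passed under 1 of 21 alternatives, without the third 20 nM library and with 2 surrogate variables (log2 0.23, adjusted p = 0.0328 in edgeR), and leaving out that library did not pass with 1 (0.28, adjusted p = 0.124 in edgeR) or with the replicate block (0.14, adjusted p = 0.16 in edgeR). The dose trend passed under 1 of 20, without Ctrl. replicate 2 and with 1 surrogate variable (0.39, adjusted p = 0.0429 in edgeR). At 10 nM the sign turned without Ctrl. replicate 3, to -0.04 (adjusted p = 0.912 in edgeR).

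The change of SORL1 can be read beside other genes with the same kind of match. Of 721 genes with an 8-mer in a 3′ UTR, the median log2 fold change was -0.03 at 10 nM and -0.06 at 20 nM, and 15% of them were called lower at 20 nM, against 6.08% of all genes. SORL1 lay above 84.7% of these genes at 10 nM and above 90.8% at 20 nM.

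APP (ENSG00000142192, chromosome 21, 25880535 to 26171128, minus strand), the precursor itself, rose at 20 nM and along the dose. Its levels were 682, 714 and 658 CPM in Ctrl., 750, 798 and 734 CPM at 10 nM, and 810, 818 and 989 CPM at 20 nM. Every mimic library lay above every Ctrl. library, and the third 20 nM library was the highest of all. The log2 fold change at 20 nM was 0.24 ± 0.06 (SE), a 1.18-fold rise (adjusted p = 0.0136 in edgeR, n = 3), and the dose trend was 0.27 ± 0.05 (adjusted p = 0.00276 in edgeR). Mean levels were 685 CPM in Ctrl. and 872 CPM at 20 nM, and with the replicate block the 20 nM change was 0.35 (adjusted p = 0.0246 in edgeR). At 10 nM the value of 0.12 ± 0.05 did not pass (adjusted p = 0.286 in edgeR, n = 3), nor did 20 nM against 10 nM at 0.11 ± 0.05 (adjusted p = 0.336 in edgeR). The call at 20 nM was lost without 20 nM replicate 2 (0.26, adjusted p = 0.0508 in edgeR), without Ctrl. replicate 3 (0.19, adjusted p = 0.0649 in edgeR) and when only the 20 nM and Ctrl. libraries were fitted, where no dose trend can be had, and the dose trend was called under each of its 20 alternatives. Without the third 20 nM library the change at 10 nM passed with 2 surrogate variables (0.16, adjusted p = 0.000525 in edgeR) and with the replicate block (0.15, adjusted p = 0.000396 in edgeR), but not with 1 surrogate variable (0.17, adjusted p = 0.0646 in edgeR).

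The relatives of APP were not called higher with all 9 libraries. APLP2 had 409, 436 and 418 CPM in Ctrl. and 446, 454 and 507 CPM at 20 nM, and its log2 fold change of 0.09 was not called (adjusted p = 0.286 in edgeR). Without the third 20 nM library APLP2 was called with 2 surrogate variables (0.09, adjusted p = 0.0288 in edgeR) and not with 1 (0.1, adjusted p = 0.143 in edgeR). APLP1 was called lower at 20 nM (-0.21 ± 0.05, adjusted p = 0.0209 in edgeR), although its 20 nM libraries at 192, 197 and 254 CPM straddled the Ctrl. libraries at 218, 212 and 230 CPM. In a fit with the replicate block the APLP1 value was -0.04 (adjusted p = 0.686 in edgeR). The test of whether APP and its relatives differ in response was not made.

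Among the alpha-secretases, ADAM17 (ENSG00000151694, chromosome 2, 9488486 to 9556732, minus strand), which also sheds TNF and EGF receptor ligands, rose at 20 nM and was not called at 10 nM. Its levels were 72.7, 62.4 and 62.9 CPM in Ctrl., 70, 72.2 and 66.6 CPM at 10 nM, and 101, 91.5 and 87 CPM at 20 nM. The 10 nM libraries overlapped Ctrl., and the 20 nM libraries were all above both other groups. The log2 fold change was 0.57 ± 0.07 (SE) at 20 nM, a 1.48-fold rise (adjusted p = 0.000195 in edgeR, n = 3), and 0.47 ± 0.06 for 20 nM against 10 nM (adjusted p = 0.00167 in edgeR). At 10 nM it was 0.09 ± 0.06 (adjusted p = 0.522 in edgeR), with a 95% interval from -0.04 to 0.23. The 20 nM call and that of the dose trend (0.57 ± 0.08, adjusted p = 0.000235 in edgeR) were made under every alternative tried, with 20 nM values from 0.48 to 0.63. The comparison of 20 nM with 10 nM lost its call with no surrogate variable and when only those 2 groups were fitted.

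ADAM17 lay above 97.2% of the 1267 genes whose strongest match is the same kind of 7-mer, whose median at 20 nM was -0.03. IAH1, a gene on the opposite strand, covers 10.3% of the exonic bases of ADAM17, and the sources used here do not say whether strand was counted. IAH1 had a mean of 50.1 CPM and a log2 fold change of 0.05 at 20 nM (adjusted p = 0.603 in edgeR).

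ADAM10 (ENSG00000137845, chromosome 15, 58588809 to 58749791, minus strand), the main alpha-secretase of neurons, had no called change. Its levels were 76.5, 74.5 and 73.8 CPM in Ctrl., 73.9, 71.1 and 71 CPM at 10 nM, and 73.3, 67.9 and 62.8 CPM at 20 nM. All 3 of its 20 nM libraries lay below all Ctrl. libraries, with replicate 3 the lowest, and it was below the same-numbered Ctrl. library in each of the 6 mimic libraries. It changed by -0.04 ± 0.04 on the log2 scale at 10 nM (adjusted p = 0.729 in edgeR), -0.07 ± 0.05 at 20 nM (adjusted p = 0.396 in edgeR) and -0.09 ± 0.05 in the dose trend (adjusted p = 0.203 in edgeR). With the replicate block ADAM10 changed by -0.14 at 20 nM (adjusted p = 0.128 in edgeR) and by -0.14 in the dose trend (adjusted p = 0.102 in edgeR), and with each library left out in turn the 20 nM value ran from -0.14 to -0.04. The dose trend passed under 1 of 20 alternatives, without 20 nM replicate 1 (-0.17, adjusted p = 0.0312 in edgeR). ADAM9, the third alpha-type protease of the list, rose more than ADAM17: it had 29.7, 30.8 and 30 CPM in Ctrl., 31.8, 32.5 and 30.7 CPM at 10 nM, and 56.3, 52.6 and 49.6 CPM at 20 nM. Its log2 fold change at 20 nM was 0.87 ± 0.06 (adjusted p = 4e-06 in edgeR), and that for 20 nM against 10 nM was 0.78 (adjusted p = 2.2e-05 in edgeR). Neither ADAM9 nor ADAM17 was called at 10 nM, and both were called for 20 nM against 10 nM.

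BACE1 (ENSG00000186318, chromosome 11, 117285232 to 117316259, minus strand), which makes the beta cut, showed no change that passed the test. It had 145, 144 and 155 CPM in Ctrl., 147, 155 and 158 CPM at 10 nM, and 152, 149 and 163 CPM at 20 nM. The groups overlapped, and each mimic library was above the Ctrl. library of its number by a small amount. BACE1 differed from Ctrl. by 0.04 ± 0.04 on the log2 scale at 10 nM (adjusted p = 0.741 in edgeR) and 0.01 ± 0.05 at 20 nM (adjusted p = 0.914 in edgeR), with a 95% interval at 20 nM from -0.09 to 0.12. BACE1-AS, an antisense RNA known to pair with BACE1, covers 35% of the exonic bases of BACE1 and was not among the genes of the table. Whether reads of BACE1-AS were counted for BACE1 was not tested. The related protease BACE2 was likewise not there.

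Of the gamma-secretase subunits, PSENEN (ENSG00000205155, chromosome 19, 35745600 to 35747519, plus strand), which encodes PEN-2, had no called change. Its levels were 32.7, 33 and 37.9 CPM in Ctrl., 39.5, 39.2 and 44.4 CPM at 10 nM, and 36.7, 41.2 and 41.9 CPM at 20 nM. The 10 nM libraries were all above Ctrl., while the lowest 20 nM library was under the highest Ctrl. library. On the log2 scale PSENEN differed from Ctrl. by 0.23 ± 0.07 at 10 nM (adjusted p = 0.176 in edgeR) and 0.14 ± 0.08 at 20 nM (adjusted p = 0.289 in edgeR). Without the third 20 nM library both passed with 2 surrogate variables (adjusted p = 0.0133 and 0.0235 in edgeR) and with the replicate block (adjusted p = 0.00363 and 0.00597 in edgeR), and neither did with 1 surrogate variable (adjusted p = 0.0939 and 0.0823 in edgeR). A protein-coding gene on the same strand, with a mean of 0.548 CPM, covers 21% of the exonic bases of PSENEN. A long non-coding RNA on the opposite strand covers 31.3% and was not among the genes of the table. Whether reads of either were counted for PSENEN was not tested.

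APH1A (ENSG00000117362, chromosome 1, 150265399 to 150269580, minus strand), a scaffold subunit, was called lower at 20 nM, a call lost under 12 of 21 alternatives. It had 267, 279 and 275 CPM in Ctrl., 277, 279 and 287 CPM at 10 nM, and 242, 258 and 282 CPM at 20 nM. The first and second 20 nM libraries lay below all Ctrl. libraries and the third above them. The log2 fold change at 20 nM was -0.15 ± 0.04 (adjusted p = 0.0446 in edgeR, n = 3), and the dose trend of -0.13 ± 0.05 was not called (adjusted p = 0.0763 in edgeR). In a fit with the replicate block it was -0.07 (adjusted p = 0.413 in edgeR), and the call was lost when any library other than the third 20 nM one was left out (adjusted p from 0.0518 to 0.346 in edgeR). Leaving out that one kept the call with 2 surrogate variables (adjusted p = 0.00278 in edgeR) and not with 1 (adjusted p = 0.0547 in edgeR). APH1B, the alternative scaffold subunit, had 11.5, 12 and 10.3 CPM in Ctrl. and 9.92, 8.43 and 7.25 CPM at 20 nM, and its log2 fold change of -0.23 was not called (adjusted p = 0.234 in edgeR). In a fit with the replicate block APH1B was called lower, with -0.4 at 20 nM (adjusted p = 0.0306 in edgeR) and -0.4 in the dose trend (adjusted p = 0.021 in edgeR), and each of its 6 mimic libraries lay below the same-numbered Ctrl. library.

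NCSTN (ENSG00000162736, chromosome 1, 160343294 to 160358952, plus strand), which encodes the substrate-binding subunit nicastrin, had 125, 126 and 120 CPM in Ctrl., 130, 127 and 121 CPM at 10 nM, and 132, 133 and 114 CPM at 20 nM. The third 20 nM library was the lowest of all 9, and the other two were the highest. Its log2 fold change at 20 nM was 0.12 ± 0.05 (adjusted p = 0.114 in edgeR), and with the replicate block it was 0.03 (adjusted p = 0.778 in edgeR). PSEN2 (ENSG00000143801, chromosome 1, 226870184 to 226927726, plus strand), a catalytic subunit, had 43.8, 47.5 and 47.9 CPM in Ctrl., 51, 46.8 and 49.1 CPM at 10 nM, and 51.5, 46.3 and 51 CPM at 20 nM. Its groups overlapped, and the log2 fold change was 0.08 ± 0.06 at 10 nM (adjusted p = 0.607 in edgeR) and 0.08 ± 0.07 at 20 nM (adjusted p = 0.481 in edgeR). A read-through gene on the same strand covers 38.7% of the exonic bases of PSEN2, so part of its count could be assigned to either.

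**Figure D2:**
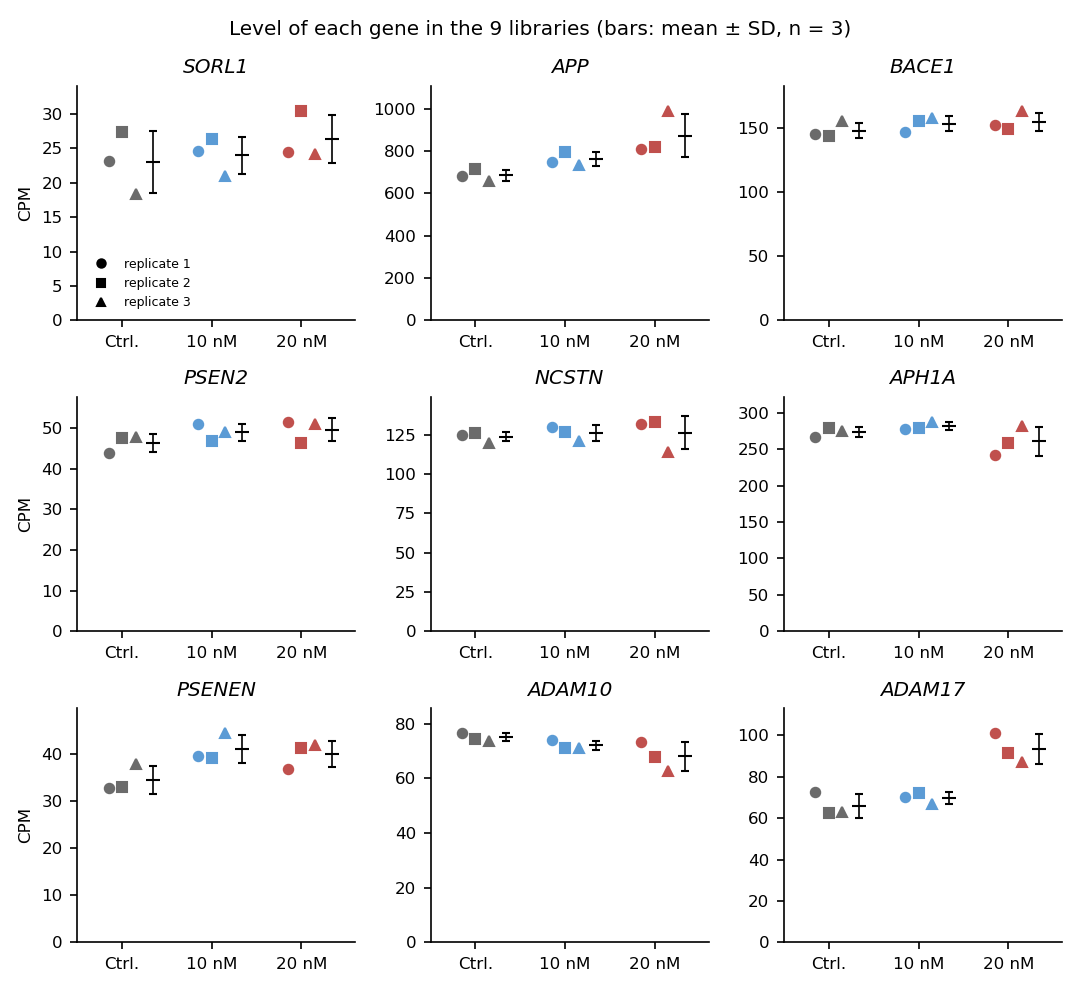
CPM of the 9 genes in every library, by group (Ctrl., 10 nM and 20 nM), with the replicate shown by the shape of the point and the mean ± SD of 3 libraries beside it. All mimic libraries of APP lie above its 3 Ctrl. libraries, ADAM17 is higher only in the 20 nM libraries, and the SORL1 groups overlap.

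Across the 9 genes, APP and ADAM17 were called higher at 20 nM and no gene was called at 10 nM. At 10 nM none of the 9 was called by edgeR (0 of 9) or by DESeq2 (0 of 9), against 0.649% of all genes in edgeR. There 2 of 9 (APP and PSENEN) had an unadjusted p under 0.05 in edgeR, as had 2084 of all 14943 genes. At 20 nM 3 of 9 were called, APP and ADAM17 higher and APH1A lower, against 13.9% of all genes called, 7.80% higher and 6.08% lower. For 20 nM against 10 nM only ADAM17 was called (1 of 9, against 2.79% of all genes). In the dose trend APP and ADAM17 were called, both higher (2 of 9), against 17.5% of all genes called, 9.84% higher and 7.69% lower. The median log2 fold change of the 9 was 0.08 at 10 nM and 0.12 at 20 nM, while that of all genes was 0.0005 and -0.0002. Ctrl. and mimic libraries did not overlap for 2 of 9 genes at 10 nM, against 20.0% of all genes, and for 3 of 9 at 20 nM, against 28.9%. Both comparisons share the same 3 Ctrl. libraries.

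**Figure D3:**
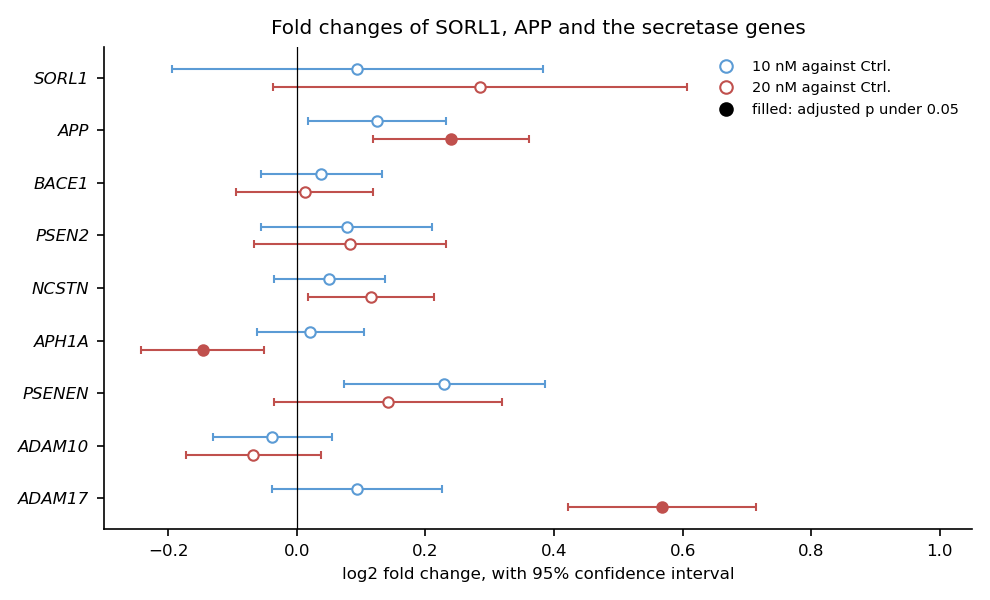
Log2 fold change of each gene against Ctrl. at 10 nM (blue) and 20 nM (red), with 95% confidence intervals from edgeR; filled points passed an adjusted p of 0.05. The ADAM17 interval at 20 nM, 0.42 to 0.71, is the one farthest from 0, and the SORL1 intervals include 0.

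The surrounding pathway was read from a list of 92 genes in 12 roles, which holds the 9 genes and of which 90 were in the table. At 20 nM 19 of 90 were called (13.9% of all genes were), 12 higher and 7 lower, and in the dose trend 23 of 90 (17.5% of all genes), 19 higher and 4 lower. The median log2 fold change over the 90 was 0.05 at 20 nM. Without the third 20 nM library and with 2 surrogate variables 35 of 90 were called at 20 nM (29.2% of all genes were). With 1 surrogate variable 25 of 90 were, and the share of all genes under that setting was not counted. A fit with the replicate block called 21 of 90 (13.6% of all genes), of which 13 were among the 19. At 10 nM 1 of 90 was called (0.649% of all genes were), PCSK7, a proprotein convertase with an 8-mer in its 3′ UTR. It had 98.3, 101 and 99.4 CPM in Ctrl. and 83.9, 85.3 and 87.3 CPM at 10 nM, which is lower in every library (log2 -0.25, adjusted p = 0.0117 in edgeR). At 20 nM PCSK7 had 89.1, 90.7 and 108 CPM, on either side of Ctrl., and was called lower (-0.16, adjusted p = 0.0267 in edgeR). With the block it was called at neither dose, at -0.22 for 10 nM (adjusted p = 0.39 in edgeR) and -0.06 for 20 nM (adjusted p = 0.607 in edgeR).

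Of the 16 genes for maturation, escorts and inhibitors of the secretases, 6 were called in the dose trend (17.5% of all genes were), 4 higher and 2 lower. FURIN, a convertase that activates ADAM proteases and BACE1, rose from 37, 44.6 and 40.4 CPM to 55, 55.8 and 65.5 CPM at 20 nM (log2 0.44 ± 0.08, adjusted p = 0.00249 in edgeR). RHBDF2, whose product iRhom2 carries ADAM17 to the cell surface, rose from 37.2, 46.9 and 44.6 CPM to 53, 62.9 and 67.5 CPM (0.38 ± 0.1, adjusted p = 0.0272 in edgeR). TIMP3, an inhibitor of this group, had 21.1, 24.2 and 32.8 CPM in Ctrl. and 32.6, 41.6 and 46.7 CPM at 20 nM. Its change at 20 nM was not called (0.4, adjusted p = 0.168 in edgeR), whereas with the block it was (0.64, adjusted p = 0.00201 in edgeR). Of the 5 tetraspanins of this group, which escort ADAM10, 2 were called at 20 nM (13.9% of all genes were). TSPAN5 fell by 0.31 on the log2 scale at 20 nM (adjusted p = 0.022 in edgeR), and TSPAN33 rose by 0.28 (adjusted p = 0.0283 in edgeR). TSPAN14, TSPAN15 and TSPAN17 were at -0.03, 0.11 and -0.0035 (in edgeR, adjusted p = 0.751, 0.464 and 0.977), and the dose trend of TSPAN15 passed with the block (0.34, adjusted p = 0.0383 in edgeR). Among the 5 other APP-cleaving proteases 1 was called at 20 nM (13.9% of all genes were), MMP24. It was called lower (-0.29, adjusted p = 0.00194 in edgeR) with 57.4, 60.2 and 76.9 CPM against 68.1, 70.4 and 73.3 in Ctrl., and with the block it was not (-0.13, adjusted p = 0.274 in edgeR).

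SORL1 belongs to the VPS10P receptors, of which 4 were in the table. Of these SORT1, sortilin, rose in the dose trend (0.23 ± 0.06, adjusted p = 0.0113 in edgeR), with 95.6, 94.4 and 105 CPM in Ctrl. and 118, 115 and 108 CPM at 20 nM. SORCS1 fell, from 347, 322 and 312 CPM in Ctrl. to 320, 301 and 271 CPM at 10 nM and 286, 268 and 250 CPM at 20 nM (dose trend -0.22 ± 0.06, adjusted p = 0.0126 in edgeR). SORCS1 holds 7-mer matches in its reference 3′ UTR. Of the 15 genes of the retromer, sorting nexins and GGA adaptors, which carry SORL1 and APP between endosomes and the Golgi, 1 was called in the dose trend (17.5% of all genes were), SNX3 (0.18, adjusted p = 0.0165 in edgeR). It had 108, 121 and 122 CPM in Ctrl. and 125, 137 and 181 CPM at 20 nM, and without the third 20 nM library the trend was not called (0.14, adjusted p = 0.0806 in edgeR), whereas with the block it was 0.33 (adjusted p = 0.0275 in edgeR).

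Among the endocytosis and lipoprotein receptors, some of which bind APP, VLDLR rose from 15.8, 14.8 and 14 CPM to 23.4, 20.9 and 19.4 CPM at 20 nM (0.6 ± 0.1, adjusted p = 0.00175 in edgeR). LRP8 and LRP1 rose in the dose trend, by 0.24 and 0.26 (in edgeR, adjusted p = 0.0126 and 0.0191). At 20 nM neither was called (in edgeR, adjusted p = 0.0584 and 0.0538), whereas with the block both were (in edgeR, adjusted p = 0.039 and 0.0392). Of the 12 adaptors and modulators of APP, 2 were called in the dose trend (17.5% of all genes were), both higher: APBA1 (0.21, adjusted p = 0.00973 in edgeR) and ITM2C (0.22, adjusted p = 0.0169 in edgeR). ITM2C had 294, 324 and 292 CPM in Ctrl. and 322, 371 and 522 CPM at 20 nM, where it was not called (adjusted p = 0.141 in edgeR). With the block the dose trend of ITM2C was 0.4 (adjusted p = 0.043 in edgeR). ECE1, a peptidase that degrades amyloid-beta, was the 1 called at 20 nM of 6 such peptidases (13.9% of all genes were). It had 81.5, 88.3 and 88.1 CPM in Ctrl., 97.7, 98.9 and 108 CPM at 10 nM, and 153, 158 and 186 CPM at 20 nM (0.83 ± 0.05 at 20 nM, adjusted p = 2e-06 in edgeR). Of 10 other gamma-secretase substrates 3 were called higher in the dose trend (9.84% of all genes were), CDH2 (0.25), NOTCH1 (0.48) and JAG2 (0.32), with adjusted p = 0.00577, 0.00759 and 0.00968 in edgeR. JAG2 had 16.2, 15.5 and 17.1 CPM in Ctrl. and 18.9, 21.2 and 29.7 CPM at 20 nM, where it was not called (adjusted p = 0.0662 in edgeR). With the block the dose trend of JAG2 was 0.5 (adjusted p = 0.0151 in edgeR).

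**Figure D4:**
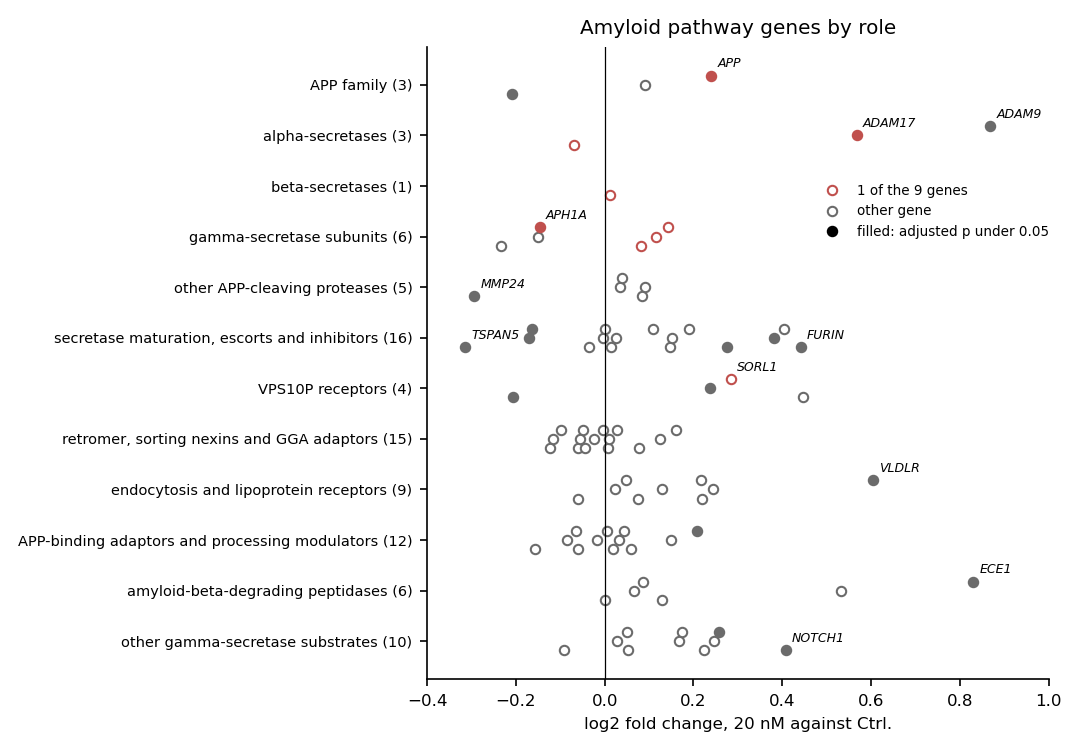
Log2 fold change at 20 nM against Ctrl. (x axis) of the 90 pathway genes in the table, by role, with the number of genes in brackets; points are spread vertically within a role for legibility only. Filled points were called (19 of 90), red marks the 9 genes, and ADAM9, ECE1, VLDLR and ADAM17 lie farthest to the right.

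In some annotated 3′ UTR 27 pathway genes held an 8-mer or 7-mer, and 20 held one in the reference transcript. Of the 27, 7 were called at 20 nM (13.9% of all genes were), 5 higher and 2 lower, with a median of 0.03. The 5 higher genes (ADAM9, ADAM17, VLDLR, APBA1 and ECE1) held 7-mers and no 8-mer, and the called gene with an 8-mer, PCSK7, was lower, as was SORCS1 with a 7-mer. The 7-mer of ADAM9 lies only in transcripts other than its reference transcript, whose 3′ UTR holds a 6-mer. In the dose trend 9 of the 27 were called (17.5% of all genes), 8 higher and 1 lower. Over all genes, 46 were called higher and 108 lower at 20 nM where the strongest match was an 8-mer, 99 higher and 130 lower where it was GGTGAGA, and 132 higher and 106 lower where it was GTGAGAA. Of the 9 genes, ADAM10 alone combined a 7-mer with a value below 0 at both doses, and that value did not pass the test.

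**Figure D5:**
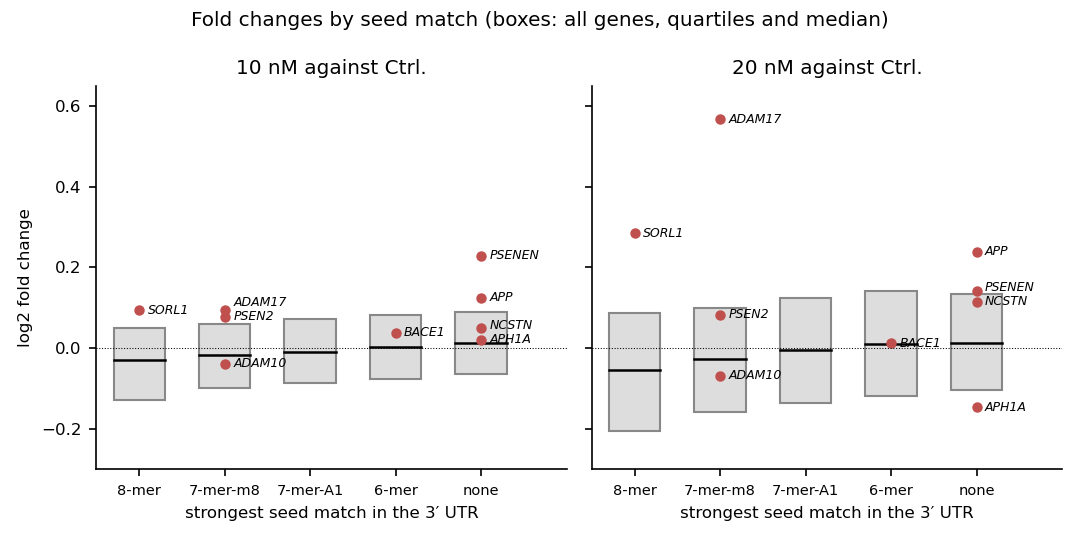
Log2 fold change at 10 nM (left) and 20 nM (right) against Ctrl., by the strongest seed match in any annotated 3′ UTR. Grey boxes span the quartiles of all genes of a kind with the median as a line, and red points are the 9 genes: SORL1 lies above the 8-mer box in both panels, and ADAM17 far above the 7-mer box at 20 nM.

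As a description, the 13682 other genes with a mean of at least 1 CPM were ranked by the Pearson correlation of log2 CPM with SORL1 and with APP over the 9 libraries, which share the groups and the scaling. The genes most like SORL1 were FCGRT (r = 0.973), ARHGEF28 (0.951), PXYLP1 (0.936), TSHZ2 (0.933) and HCFC1R1 (0.933). Those most like APP were LRRC4B (0.989), ANKRD9 (0.989), IARS2 (0.987), SSR4 (0.984) and MGAT1 (0.982). No gene of the pathway list was among them.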

How the data were processed

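PolyA RNA of SH-Sy5y cells was sequenced, 1 library per replicate, and groups and replicate numbers came from the sample titles. The authors mapped reads with salmon onto GRCh38.p13 (Ensembl annotation 107), summed to genes by symbol and filtered with filterByExpr. The deposited file holds estimated counts (88.8% not whole), which were rounded here. Library totals were 17423969 to 28192775 counts, and the lowest count of the 9 genes was 368, for SORL1. Deposited log2 values corrected for surrogate variables and the authors' deposited comparison tables (log2 fold changes and p-values) were not used.

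Genes were tested in edgeR 4.0.16 (R 4.3.3) with TMM, filterByExpr (0 of 14943 genes removed), a model of group or of concentration, and surrogate variables from sva 3.50.0. Their number is not given in the sources used here. Here num.sv (method be, seed 1) set it within limits of 1 and 3, at 1 by group and at 2 for the dose trend. Intervals are 95%. The steps were tested on simulated counts that held no outlying library and no unwanted variation, so that test does not cover the work of the surrogate variables. The log2 CPM used a prior count of 2. Counts of the same number deviated together between Ctrl. and 10 nM (r = 0.142 to 0.185) and between Ctrl. and 20 nM (r = 0.107 to 0.116), so the replicate block is a paired analysis there. Between 10 nM and 20 nM r was 0.174, 0.0288 and 0.176 for replicates 1 to 3, so pairing is less clear there. The labels do not say whether a number marks a shared culture or day. Replicates differed by more than sampling noise. Chi-square per degree of freedom was 46.5 and 36.7 for the third 20 nM library against the first and second, and 4.69 to 8.4 for all other pairs within a group.

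Seed matches and lengths came from GENCODE 44 (GRCh38.p14), where 14105 genes were found by identifier and 768 by symbol, leaving 70 without an entry. Alternatives were DESeq2 1.42.0, other scalings, filters, tests and numbers of surrogate variables, the replicate block and each library left out. Another 2 were chosen after seeing the data. Pathway genes were named, at most 4 per role, where called at 20 nM or in the dose trend by the smallest adjusted p of the trend, with BACE2, APLP1, APLP2, SORT1 and APH1B always named. RTN4, RER1 and PCSK7 passed this filter beyond the 4 of their role, and PCSK7 was named after its values were seen, as the 1 call at 10 nM. TIMP3 did not pass this filter and was also named after its values were seen. The members and lists were chosen with earlier results of these data known. A marker gene and a pathway gene of these lists are not reported here.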

Additional observations from a re-analysis of the deposited data

How the results depend on the processing

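ADAM17 at 20 nM and in the dose trend, and APP in the dose trend, were called under every alternative tried. With each library left out in turn, the number of the 9 genes called ran from 0 to 2 at 10 nM, from 1 to 5 at 20 nM and from 1 to 2 for 20 nM against 10 nM, and the number of the 90 pathway genes called from 0 to 12 at 10 nM, 9 to 35 at 20 nM, 3 to 16 for 20 nM against 10 nM and 12 to 31 in the dose trend. The upper ends of all but the last came without the third 20 nM library, where the fit by group also took 2 surrogate variables in place of 1. With that library left out and 1 surrogate variable, 0 of the 9 and 2 of the 90 were called at 10 nM, 2 and 25 at 20 nM, and 1 and 6 for 20 nM against 10 nM. The share of all genes called at 20 nM also moved with the setting. It was 13.9% with all libraries, 29.2% without the third 20 nM library and with 2 surrogate variables, and 13.6% with the replicate block. For the other alternatives of this section that share was not counted, so their counts cannot be read against it. The lower ends at 20 nM came without 20 nM replicate 2 (1 and 9, and 12 in the dose trend) or Ctrl. replicate 3 (1 and 12). The 1 pathway call at 10 nM was lost without Ctrl. replicate 1 and without 10 nM replicate 1 or 2. SORL1 ran from -0.044 to 0.23 at 10 nM, 0.13 to 0.45 at 20 nM and 0.12 to 0.39 in the dose trend, BACE1 at 20 nM from -0.0067 to 0.0391, and PSEN2 for 20 nM against 10 nM from -0.071 to 0.062.

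Without surrogate variables, 0 of the 9 genes and 2 pathway genes were called for 20 nM against 10 nM, and 0, 9 and 15 pathway genes at 10 nM, 20 nM and in the dose trend. With only the groups compared, which leaves fewer libraries, 1 of the 9 genes and 5 pathway genes were called at 20 nM and 0 and 2 for 20 nM against 10 nM. The replicate block gave 0 pathway genes at 10 nM and 3 for 20 nM against 10 nM, and it changed no call of the 9 genes other than APH1A at 20 nM. Together with leaving out the third 20 nM library it gave 2 of the 9 genes at 10 nM and 2 for 20 nM against 10 nM, and 15, 34 and 16 pathway genes at 10 nM, at 20 nM and for 20 nM against 10 nM. DESeq2, the likelihood-ratio test, another number of surrogate variables and a mean of at least 1 CPM each gave 2 of the 9 genes (APH1A and ADAM17) for 20 nM against 10 nM and 2 pathway genes at 10 nM. DESeq2 size factors and library totals also gave 2 of the 9 there. Differences near 0 turned sign for 20 nM against 10 nM. BACE1 became 0.0123 without surrogate variables, 0.0118 with the replicate block and 0.0023 with only the groups compared, where NCSTN became -0.0069. PSEN2 became -0.0003 in DESeq2, -0.0007 with its size factors, -0.003 with library totals, -0.0008 at a mean of at least 1 CPM and -0.0052 with the number of surrogate variables held. The causes were not tested. Whether depth limits the calls of SORL1, which had the fewest counts of the 9 genes, was not tested.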

Other observations

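Coding sequences also held seed matches. Counting them, 5 of the 9 genes held an 8-mer or 7-mer in a 3′ UTR or in the coding sequence, since APP has 1 coding 7-mer and none in its 3′ UTR. SORL1 has 2 coding 7-mers beside the 8-mer in its 3′ UTR, and ADAM10 and ADAM17 have 1 each. BACE1, PSEN2, NCSTN, APH1A and PSENEN have no coding 7-mer or 8-mer. By the same count 44 of the 90 pathway genes held an 8-mer or 7-mer, and the share of all genes was not counted.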
